A study of Mus musculus with 38 samples.

Results

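Thyroid hormone activation and reception in the left ventricle was followed through 4 genes, Dio2, Thra, Thrb and Slc16a10. They were taken by symbol from the deposited tables, which list 29564 genes, and all 4 were among the 13765 genes with enough reads to be tested. The genes had been selected on earlier results of these same libraries, so their differences between groups are given here as a description, with errors. Their calls are counted beside those of all genes, and again under other settings in the closing section, and nothing is read from them. RNA was sequenced from 38 C57BL6 mice of wild-type genotype (C57BL/6J in the study's methods), 1 left ventricle library per mouse. Healthy hearts formed the non_failing group (n = 8). The other hearts modelled HFpEF, failure in which the ejection fraction is preserved, brought about in every such mouse by a high-fat diet with L-NAME, a blocker of nitric oxide synthesis. Of these mice 8 received vehicle and formed HFpEF+Veh, 11 received TYA-018, which inhibits HDAC6, and formed HFpEF+TYA-018, and 11 received empagliflozin, which inhibits SGLT2, and formed HFpEF+SGLT2i. The series title gives 3 months of treatment and the study's methods a shorter course. The labels give the sex as female and the methods as male, and the methods give an age at purchase but no age at collection for these libraries.

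The heart takes up thyroxine (T4) and the active hormone triiodothyronine (T3) from blood through membrane transporters. Slc16a10 encodes MCT10, a transporter of T3, T4 and aromatic amino acids. Dio2 encodes type 2 deiodinase, a selenoenzyme of the endoplasmic reticulum that removes an outer ring iodine from T4 to make T3 inside the cell. Thra and Thrb encode the nuclear receptors that bind T3. With a retinoid X receptor as partner they hold corepressors at target genes when the hormone is absent and recruit coactivators when it is present. In cardiomyocytes T3 is known to raise Myh6 and Atp2a2 and to lower Myh7, and Thra is the main receptor form of the heart.

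The sequences that set these genes apart are shown first. Dio2 lies on chr12:90724552-90738438 of GRCm38, minus strand, with a single annotated transcript of 5815 bases in 2 exons. RefSeq places its start site 600 bases upstream of the GENCODE one. The 250 bases before the RefSeq start (GRCm38.p6, chr12:90739039-90739288, minus strand) carry the palindrome TGACGTCA, the cyclic AMP response element (CRE), which begins 95 bases before the start and is printed in capitals. Dio2 is a textbook cyclic AMP-induced gene, so this element is the reason for showing the window.

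Dio2 upstream window: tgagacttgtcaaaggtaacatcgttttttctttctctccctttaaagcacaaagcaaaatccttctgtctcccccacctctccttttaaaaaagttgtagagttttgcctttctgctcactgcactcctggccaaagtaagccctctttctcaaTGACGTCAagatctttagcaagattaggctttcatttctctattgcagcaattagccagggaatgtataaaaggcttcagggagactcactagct

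TGACGTCA, searched on both strands, was present in 508 of 32851 windows of this length in the RefSeq promoter table, or 1.55%. It was not found in the window of Slc16a10 or in either window of Thrb. The receptor half-site AGGTCA, also searched on both strands, was present in 14.0% of windows, once in 1 of the Thrb windows and in neither the Dio2 nor the Slc16a10 window. A match is only a match of letters in these windows.

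The second feature of Dio2 is in its coding region. Of its 266 codons, numbers 130 and 263 are TGA codons that the annotation marks as selenocysteine. The stretch around codon 130, at chr12:90729823-90729825, is printed with that TGA in capitals, since translation through it needs the selenoprotein factors described further on.

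Dio2 codon 130: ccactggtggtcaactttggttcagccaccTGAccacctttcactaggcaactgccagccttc

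Thra lies on chr11:98740638-98769006, plus strand, and Thrb on chr14:17660261-18038090, plus strand. The 2 receptors are paralogs, and a read can be credited to the wrong one only where their sequences are alike. The coding sequences of Thra-202 and Thrb-201 were identical at 74.8% of 1221 aligned bases, and the longest identical run was 26 bases. The 90 coding bases around that run, which begin at base 724 of Thra-202 and at base 886 of Thrb-201, are given with the 12 bases that differ in capitals.

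Thra-202: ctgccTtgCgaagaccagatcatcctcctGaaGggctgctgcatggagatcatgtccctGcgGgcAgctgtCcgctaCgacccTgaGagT

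Thrb-201: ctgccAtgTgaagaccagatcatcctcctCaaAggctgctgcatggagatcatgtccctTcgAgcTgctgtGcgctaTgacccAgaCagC

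Thra has 9 annotated transcripts. Thra-202 encodes the form that binds T3. Thra-201 shares its first 1111 coding bases, then diverges, and encodes the form that does not bind T3. The gene tables sum both. The last exon of Thra-201 overlaps exons of Nr1d1, a clock repressor transcribed from the opposite strand, over 263 bases (chr11:98768157-98768419). Slc16a10 lies on chr10:40033532-40142258, minus strand, with 4 annotated transcripts.

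Libraries held 21.5 to 59.3 M counts (M is 1000000), with a median of 29.5 M. Liver transcripts stood out in 1 vehicle library, HFpEF+Veh V2523, where 8 hepatocyte markers summed to 1283 TPM (transcripts per 1000000). The median of its group was 4.24 TPM. These markers summed to 19.4 to 333 TPM in non_failing hearts, 1.27 to 2.82 TPM in HFpEF+TYA-018 and 1.18 to 6.83 TPM in HFpEF+SGLT2i. Vehicle values without V2523 are therefore given beside the others. The ventricular markers Tnnt2, Tnni3, Myl2 and Myl3 were abundant throughout: the 6 cardiomyocyte markers summed to between 17350 and 32424 TPM in every library. Of these 6 genes 4 (Tnnt2, Tnni3, Myl2 and Myl3) were called lower in HFpEF+Veh than in non_failing, beside 3.15% of all tested genes. The same 4 were called lower in HFpEF+SGLT2i against non_failing, beside 6.45%. In HFpEF+TYA-018 against non_failing Myl3 was called lower, beside 7.39%.

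Thra was the most abundant of the 4 genes and Dio2 the least, on the TPM scale, which is per length. Over all libraries the mean levels were 18.1 ± 3.09 TPM for Thra, 2.55 ± 0.478 TPM for Slc16a10, 2.51 ± 0.484 TPM for Thrb and 0.273 ± 0.201 TPM for Dio2 (SD, n = 38). Slc16a10 and Thrb did not differ beyond their spread. Dio2 was also the most variable, with a coefficient of variation over all libraries of 73.8% against 17.1% for Thra, 18.7% for Slc16a10 and 19.3% for Thrb. These values include the differences between group means. They also include counting error, which weighs most on Dio2 and was not separated from the variation between hearts. The median was 41.5 reads per library for Dio2, 312 for Slc16a10, 403 for Thrb and 1473 for Thra. Within groups that of Dio2 was 33.3% in non_failing, 73.6% in HFpEF+Veh (50.5% without V2530), 28.0% in HFpEF+TYA-018 and 65.7% in HFpEF+SGLT2i. In each group it was the highest of the 4 genes.

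**Figure D1:**
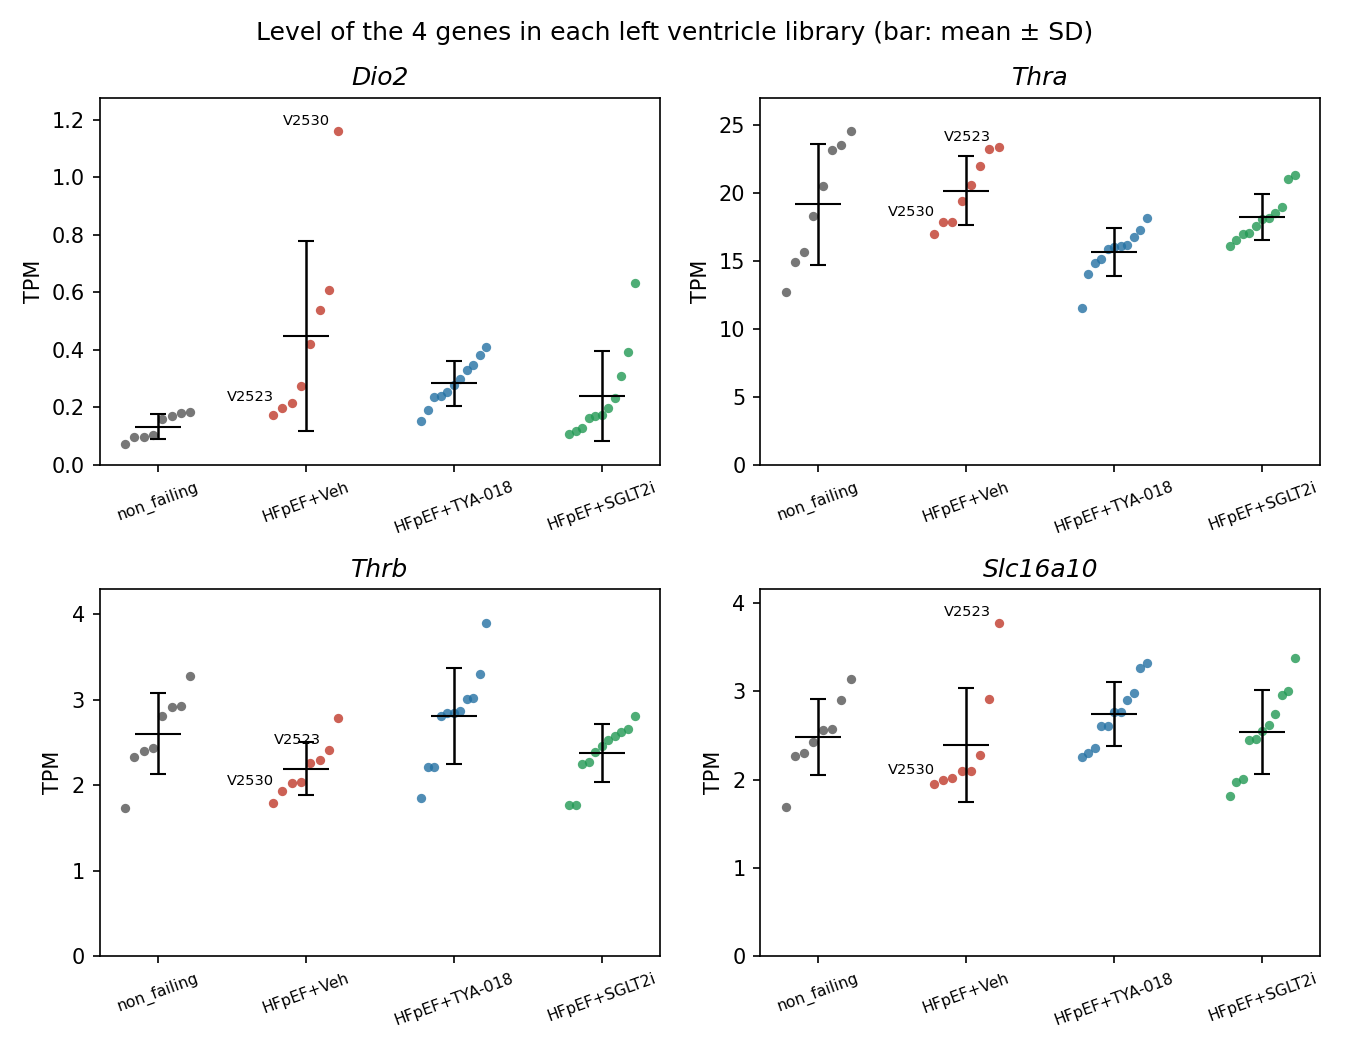
TPM of Dio2, Thra, Thrb and Slc16a10 in each left ventricle library by group; points are libraries, and the bar and whiskers are the group mean ± SD. Dio2 is lowest in non_failing hearts and reaches 1.16 TPM in HFpEF+Veh V2530, Thra is lowest in HFpEF+TYA-018, and V2523 is the highest vehicle library for Slc16a10.

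Dio2, the T4-activating enzyme, was low in healthy hearts and higher in HFpEF hearts. In non_failing hearts it ranged from 0.0718 to 0.183 TPM with a median of 0.133 TPM, from 12 to 44 reads per library. In HFpEF+Veh the lowest library had 0.173 TPM, the median was 0.347 TPM and the highest was 1.16 TPM, from 27 to 190 reads. All but 1 of the 8 vehicle libraries (7 of 8) lay above the highest non_failing library, so the groups overlapped at V2526 only.

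Treated hearts held intermediate Dio2 levels. In HFpEF+TYA-018 the values ran from 0.152 through a median of 0.278 to 0.408 TPM, and 10 of 11 libraries lay above all non_failing hearts. In HFpEF+SGLT2i they ran from 0.107 through 0.174 to 0.630 TPM, and 5 of 11 did. These counts hold in TPM. In CPM, HFpEF+TYA-018 V2547 (1.22) and HFpEF+SGLT2i V2566 (1.17), counted here as above, lay below non_failing V2507 (1.32). The mean was 0.133 ± 0.0442 TPM for non_failing, 0.448 ± 0.330 TPM for HFpEF+Veh, 0.283 ± 0.0791 TPM for HFpEF+TYA-018 and 0.238 ± 0.156 TPM for HFpEF+SGLT2i (SD, n = 8, 8, 11 and 11). Both treated means lay within 1 SD of the vehicle mean.

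From counts, the log2 fold change of Dio2 in HFpEF+Veh against non_failing was 1.68 ± 0.36 (SE), and the ratio of the TPM means was 3.38. It was 1.14 ± 0.34 in HFpEF+TYA-018 and 0.84 ± 0.34 in HFpEF+SGLT2i against the same non_failing hearts. Against HFpEF+Veh it was -0.54 ± 0.32 in HFpEF+TYA-018 and -0.84 ± 0.32 in HFpEF+SGLT2i. Between the 2 drugs it was 0.30 ± 0.30, TYA-018 being higher. These comparisons share control libraries.

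One vehicle heart carried much of the difference between vehicle and treated groups. HFpEF+Veh V2530 had 190 Dio2 reads (95% exact Poisson interval 164 to 219, counting error only), whereas V2504, the lowest non_failing heart, had 12. Without V2530 the vehicle mean was 0.347 ± 0.175 TPM (n = 7). The log2 fold change against vehicle then became -0.16 for HFpEF+TYA-018 and -0.46 for HFpEF+SGLT2i, and HFpEF+Veh against non_failing became 1.30. Leaving out HFpEF+SGLT2i V2571, the highest of its group at 0.630 TPM, changed the log2 fold change between the drugs to 0.55. Without V2523 the vehicle mean was 0.484 ± 0.339 TPM (n = 7) and the log2 fold change against non_failing was 1.80, with -0.66 for HFpEF+TYA-018 and -0.97 for HFpEF+SGLT2i against vehicle.

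**Figure D2:**
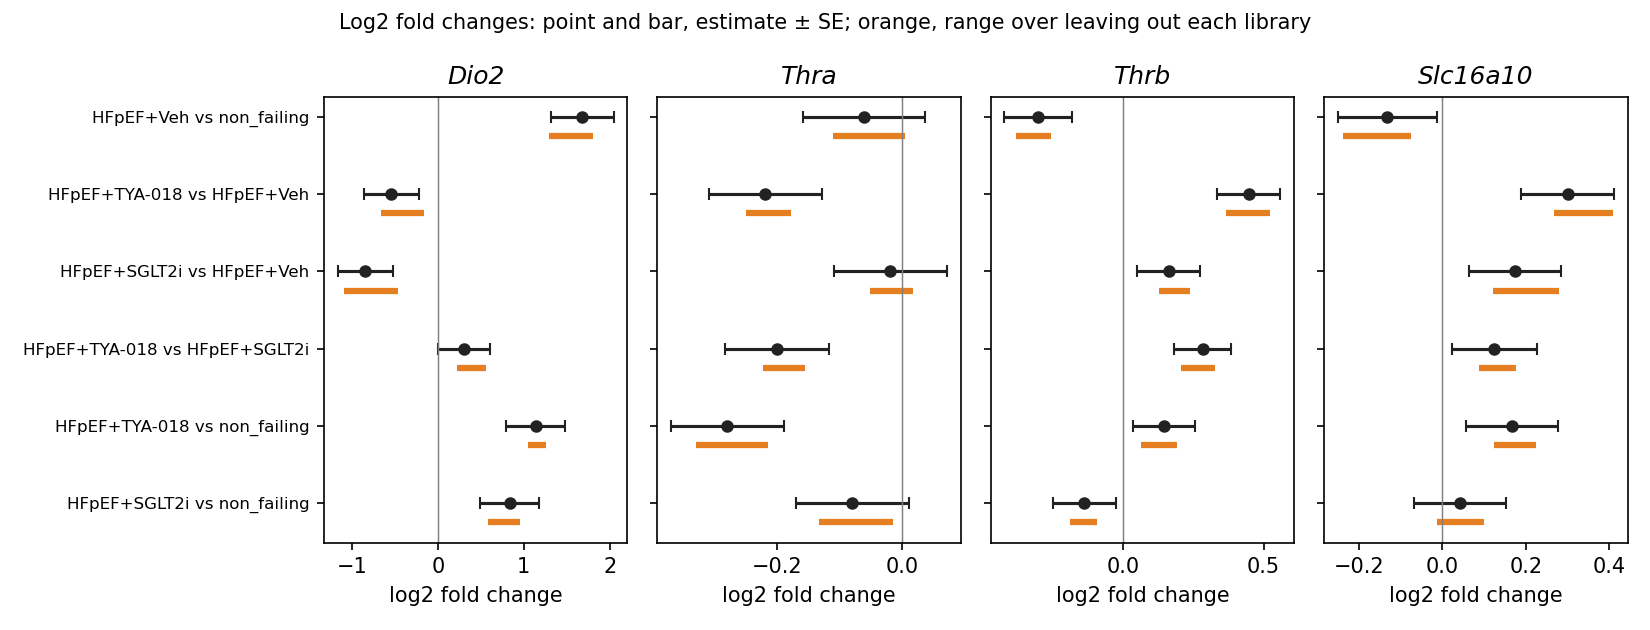
Log2 fold changes of the 4 genes in the 6 comparisons, with horizontal bars for ± SE and orange bars for the range over leaving out each library in turn; the scale differs between panels. Dio2 stays above 0 in each of the 3 comparisons with non_failing hearts, while its difference between HFpEF+TYA-018 and HFpEF+Veh shrinks from -0.54 to -0.16 without V2530.

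The genes whose levels followed Dio2 most closely were matrix genes. Over the 38 libraries and 10923 other genes, the highest Pearson correlations of log2 CPM (counts per 1000000) were with Postn (r = 0.89, Spearman's rho = 0.86), Cilp (r = 0.88, rho = 0.83) and Ltbp2 (r = 0.87, rho = 0.82). Postn encodes periostin, a matrix protein of activated fibroblasts, Cilp a cartilage-type matrix protein also made by cardiac fibroblasts, and Ltbp2 a protein of elastic microfibrils. Centring each group on its own mean left r at 0.85 for Postn, 0.85 for Cilp and 0.82 for Ltbp2. Libraries share depth and composition, so these are descriptions.

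The same library was highest for each of these genes. They were picked for following Dio2 over these same libraries, so a shared top library is partly built in. Their correlations were not computed without V2530. V2530 held 44.1 TPM of Postn, 16.7 TPM of Cilp and 2.69 TPM of Ltbp2. V2571 was the highest SGLT2i library for all 3, with 19.6, 5.85 and 0.816 TPM. Mean Postn levels were 10.3 TPM in non_failing, 21.2 in HFpEF+Veh, 15.7 in HFpEF+TYA-018 and 13.7 TPM in HFpEF+SGLT2i.

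**Figure D3:**
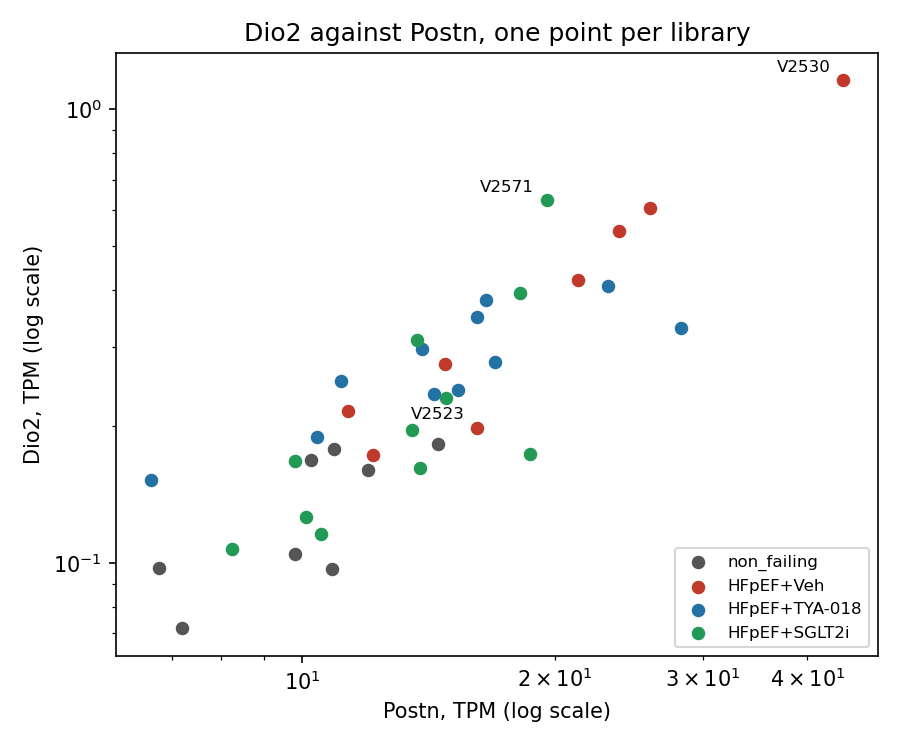
Dio2 against Postn, both in TPM on log axes, with 1 point per library coloured by group. Non_failing libraries lie at the lower left and HFpEF+Veh V2530 at the upper right (Postn 44.1 TPM, Dio2 1.16 TPM).

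Markers of other cells moved with Dio2 in part. The 5 fibroblast markers (Pdgfra, Dcn, Col1a1, Tcf21 and Lum) summed to 155 to 262 TPM in non_failing, 233 to 565 TPM in HFpEF+Veh, up to 305 TPM in HFpEF+TYA-018 and 187 to 283 TPM in HFpEF+SGLT2i, and V2530 was the 565 TPM library. Of these markers 2 of 5, Lum (log2 fold change 0.86) and Pdgfra (0.33), rose in HFpEF+Veh against non_failing (adjusted p = 0.0019 and 0.0123, edgeR quasi-likelihood test), where 3.15% of all tested genes were called. Dcn (0.35), Col1a1 (0.23) and Tcf21 (-0.13) were not called there. In treated hearts against non_failing, Lum rose in HFpEF+TYA-018 (0.54 ± 0.16, adjusted p = 0.0268), Pdgfra rose in HFpEF+SGLT2i (0.35 ± 0.07, adjusted p = 0.00211) and Tcf21 fell in HFpEF+SGLT2i (-0.43 ± 0.13, adjusted p = 0.0324), by edgeR. Of all tested genes, 7.39% were called in HFpEF+TYA-018 and 6.45% in HFpEF+SGLT2i against non_failing. The Lum and Tcf21 calls each held in 33 of 38 fits without 1 library and were lost with library size alone, the Tcf21 call with limma as well. The correlation of Dio2 with the fibroblast sum was 0.51 (rho = 0.28, n = 38) with the sum of 4 macrophage markers 0.48 (rho = 0.43), with the atrial sum 0.39 (rho = 0.35), with the endothelial sum 0.29 (rho = 0.26), with the cardiomyocyte sum -0.66 (rho = -0.56), with the brown fat sum -0.52 (rho = -0.55) and with the hepatocyte sum -0.44 (rho = -0.34). V2530 had the highest macrophage sum of its group (32.6 TPM) and V2571 that of its own (31.7 TPM), and each had the lowest cardiomyocyte sum of its group (22242 and 17350 TPM). Their part in the Dio2 difference was not tested. In these homogenates more cells of a type and more RNA per cell cannot be told apart. Dio2 is also known from brown fat. The 4 brown fat markers, Ucp1, Cidea, Elovl3 and Cox7a1, summed to 1432 to 2148 TPM in non_failing, 1269 to 1769 TPM in HFpEF+Veh, 1349 to 1979 TPM in HFpEF+TYA-018 and 1266 to 1787 TPM in HFpEF+SGLT2i. Ucp1 and Elovl3 reached at most 0.116 and 0.316 TPM in any library. Cidea, a lipid droplet protein, rose against non_failing in HFpEF+Veh (log2 fold change 0.69 ± 0.08, adjusted p = 4.98e-07, higher in 8 of 8), HFpEF+TYA-018 (0.96 ± 0.08, adjusted p = 6.35e-11) and HFpEF+SGLT2i (0.90 ± 0.08, adjusted p = 1.35e-10), by edgeR. Cox7a1, which is also a heart muscle gene and makes up nearly all of the sum, with a mean of 1724 TPM in non_failing, was not called (-0.29 ± 0.11 in HFpEF+Veh, lower in 8 of 8). The part of these genes in the Dio2 difference was not tested. The white fat markers summed to at most 0.755 TPM. V2532, which held fast skeletal muscle transcripts at 40.6 TPM in sum, had 0.274 TPM of Dio2, below its group's median.

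The other deiodinases were near the limit of detection and were not tested. Dio1, the liver and kidney form, had 0.0257 TPM in non_failing on average. Its 0.352 ± 0.981 TPM in HFpEF+Veh (SD, n = 8) came from V2523, with 2.78 TPM. Dio3, which inactivates T4 and T3, averaged 0.0121 TPM in non_failing, 0.0351 in HFpEF+Veh, 0.00943 in HFpEF+TYA-018 and 0.00931 TPM in HFpEF+SGLT2i.

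Thra, the main cardiac receptor gene, was lowest under TYA-018. In non_failing hearts it ran from 12.7 through a median of 19.4 to 24.5 TPM, and in HFpEF+Veh from 17.0 through 20.0 to 23.3 TPM. In HFpEF+TYA-018 it ran from 11.5 through 16.0 to 18.1 TPM, and in HFpEF+SGLT2i from 16.1 through 18.0 to 21.3 TPM. All 4 groups overlapped, yet in TPM 9 of 11 HFpEF+TYA-018 libraries lay below the lowest vehicle library. Fewer did in CPM, the scale of the fold changes. There only V2547 (43.4), V2550 (41.4), V2551 (40.8) and V2555 (31.2) lay below the lowest vehicle library, V2529 (43.5). Means were 19.1 ± 4.44, 20.1 ± 2.52, 15.6 ± 1.76 and 18.2 ± 1.70 TPM in the same order (SD, n = 8, 8, 11 and 11), and the vehicle mean without V2523 was 19.7 TPM.

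The log2 fold change of Thra from counts was -0.22 ± 0.09 for HFpEF+TYA-018 against HFpEF+Veh (-0.18 without V2523), -0.20 ± 0.08 against HFpEF+SGLT2i and -0.28 ± 0.09 against non_failing. All 11 HFpEF+TYA-018 libraries lay below the mean of the other group in each of these comparisons. Thra had r = 0.46 with the hepatocyte sum (0.41 without V2523, 0.38 within groups) and 0.37 with the cardiomyocyte sum (0.42 within groups), and the hepatocyte sum was lower in all HFpEF+TYA-018 libraries (at most 2.82 TPM) than in any non_failing one (at least 19.4 TPM). Their part in the Thra difference was not tested. HFpEF+Veh and non_failing differed by -0.06 ± 0.10 from counts (-0.10 without V2523) while the TPM means ran the other way. HFpEF+SGLT2i differed from HFpEF+Veh by -0.02 ± 0.09, which became 0.02 without V2523. The direction in those last 2 comparisons changed in 3 of 43 alternative settings each.

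Thrb had its highest mean under TYA-018, where Thra had its lowest. It ran from 1.73 through a median of 2.62 to 3.27 TPM in non_failing, from 1.80 through 2.15 to 2.78 TPM in HFpEF+Veh, from 1.84 through 2.85 to 3.90 TPM in HFpEF+TYA-018 and from 1.77 through 2.46 to 2.81 TPM in HFpEF+SGLT2i. The groups overlapped, with 8 of 11 HFpEF+TYA-018 hearts above the highest vehicle heart in TPM. Of these, V2543 (13.3) and V2548 (14.3) lay below the highest vehicle heart, V2526 (14.9), in CPM. Means were 2.60 ± 0.477, 2.19 ± 0.314, 2.81 ± 0.563 and 2.37 ± 0.340 TPM (SD, n = 8, 8, 11 and 11), and the vehicle mean without V2523 was 2.16 TPM.

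The log2 fold change of Thrb was -0.30 ± 0.12 for HFpEF+Veh against non_failing. It was 0.45 ± 0.11 for HFpEF+TYA-018 and 0.16 ± 0.11 for HFpEF+SGLT2i against HFpEF+Veh, and 0.28 ± 0.10 between the drugs. Against non_failing it was 0.15 ± 0.11 in HFpEF+TYA-018 and -0.14 ± 0.11 in HFpEF+SGLT2i. Leaving out V2523 gave -0.30 for HFpEF+Veh against non_failing, and 0.45 for HFpEF+TYA-018 and 0.17 for HFpEF+SGLT2i against HFpEF+Veh. Marker sums of other cells moved with Thrb: over the 38 libraries r was -0.50 with the macrophage, -0.43 with the fibroblast and -0.39 with the endothelial sum, and -0.37, -0.29 and -0.23 within groups. It was 0.44 with the brown fat sum, which is nearly all Cox7a1, and 0.37 within groups. From HFpEF+Veh to HFpEF+TYA-018 the median sum went from 25.6 to 20.8 TPM for macrophage, 292 to 226 TPM for fibroblast and 181 to 149 TPM for endothelial markers, and their part in the Thrb difference was not tested.

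The ratio of the 2 receptor genes, each summed over its transcripts, put these differences together. The Thra sum includes Thra-201, which encodes the form that does not bind T3. Thra exceeded Thrb 7.48 ± 1.85 times in non_failing, 9.27 ± 1.22 times in HFpEF+Veh, 5.78 ± 1.43 times in HFpEF+TYA-018 and 7.82 ± 1.38 times in HFpEF+SGLT2i (TPM ratio, SD, n = 8, 8, 11 and 11), and 9.21 ± 1.30 times in HFpEF+Veh without V2523 (n = 7). The vehicle libraries lay between 7.39 and 11.5 and the HFpEF+TYA-018 libraries between 3.81 and 8.74, so they overlapped. The SDs of the non_failing and HFpEF+SGLT2i ratios overlapped those of both. Across the 38 libraries log2 CPM of Thra and Thrb had r = -0.19, and 0.01 within groups.

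**Figure D4:**
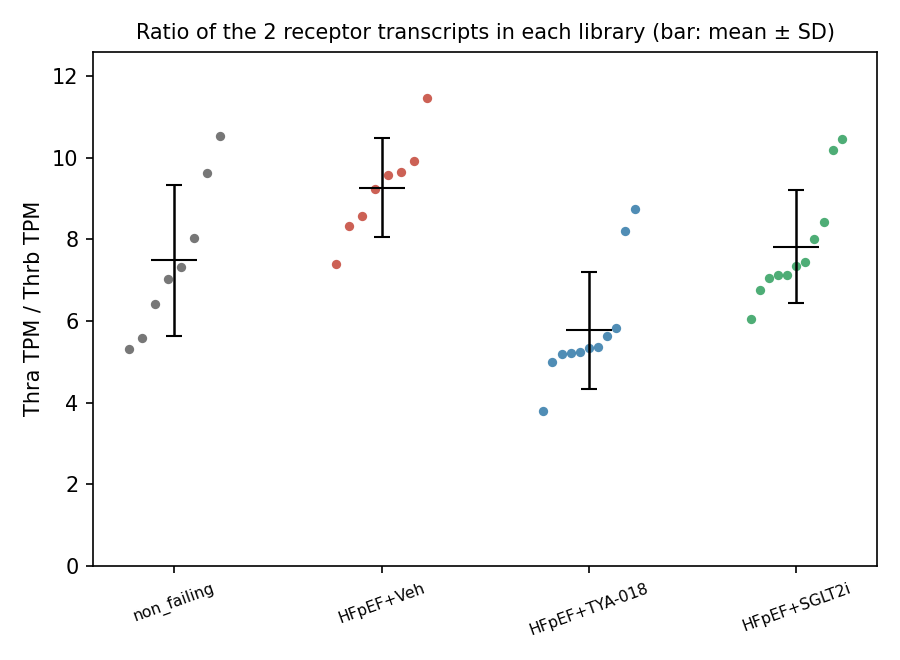
Ratio of Thra TPM to Thrb TPM in each library by group, with the group mean ± SD. The ratio is highest in HFpEF+Veh, with a mean of 9.27, and lowest in HFpEF+TYA-018, with a mean of 5.78.

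Neighbours at the receptor loci were followed because of the shared bases. Nr1d1 fell in HFpEF+TYA-018 against non_failing (log2 fold change -0.76 ± 0.23, adjusted p = 0.0322 by edgeR, lower in 9 of 11 libraries), from 23.5 ± 5.82 (n = 8) to 13.3 ± 7.13 TPM (n = 11). That call held in 32 of 38 fits without 1 library, and Nr1d1 was not called in the other 5 comparisons. Thra and Nr1d1 had r = 0.69 over the 38 libraries (rho = 0.61, within groups 0.58). The study's methods name a stranded library kit. Whether reads were counted by strand was not stated, so the share of reads between them was not tested. Nr1d2 lies 165963 bases from Thrb with no shared base, was not called in any comparison, and had r = 0.27 with Thrb.

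Slc16a10, the transporter, had the group means that lay closest together, relative to their size. It ran from 1.69 through a median of 2.49 to 3.14 TPM in non_failing, from 1.95 through 2.10 to 3.78 TPM in HFpEF+Veh, from 2.26 through 2.76 to 3.32 TPM in HFpEF+TYA-018 and from 1.81 through 2.55 to 3.38 TPM in HFpEF+SGLT2i. The groups overlapped, although all 11 HFpEF+TYA-018 libraries were above the vehicle median. The vehicle maximum was V2523, the library with liver transcripts, and without it the vehicle mean moved from 2.39 ± 0.642 (n = 8) to 2.19 ± 0.337 TPM (n = 7).

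The log2 fold change of Slc16a10 was -0.13 ± 0.12 for HFpEF+Veh against non_failing and -0.24 without V2523. Against HFpEF+Veh it was 0.30 ± 0.11 in HFpEF+TYA-018 and 0.17 ± 0.11 in HFpEF+SGLT2i, and 0.41 and 0.28 without V2523. The differences were 0.12 ± 0.10 between the drugs, 0.17 ± 0.11 for HFpEF+TYA-018 and 0.04 ± 0.11 for HFpEF+SGLT2i against non_failing, and the last changed direction in 2 of 43 alternative settings. The endothelial sum had r = -0.52 with Slc16a10, the macrophage sum -0.41 and the cardiomyocyte sum 0.41 (n = 38), and their part in these differences was not tested. In TPM V2507 was the lowest non_failing library for Thra, Thrb and Slc16a10 alike.

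The genes with levels most like those of Thra were Mmp15 (r = 0.78, rho = 0.72), Sema5a (r = 0.70, rho = 0.69) and Lingo3 (r = 0.70, rho = 0.66). Those of Thrb were Setd6 (r = 0.73, rho = 0.72), Flad1 (r = 0.71, rho = 0.71) and Cnst (r = 0.69, rho = 0.58). Those of Slc16a10 were AI464131 (r = 0.83, rho = 0.83), Vdac2, a channel of the outer mitochondrial membrane (r = 0.79, rho = 0.80), and Rnf5 (r = 0.79, rho = 0.79).

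Counts of calls at an adjusted p under 0.05 are given beside those of all tested genes, and nothing is read from them for genes chosen by these results. Of the 4 genes, 1 (Dio2) was called in HFpEF+Veh against non_failing, where 3.15% of genes were called. In HFpEF+TYA-018 against HFpEF+Veh it was 1 (Thrb), beside 1.93%, and that call was lost without V2529, without V2530, with scaling to library size alone and with limma on log2(TPM + 1). None was called in HFpEF+SGLT2i against HFpEF+Veh, beside 0.85% (117 genes, and 2 without V2523), nor between the drugs, where 0 genes of 13765 were called by edgeR, 1821 had an unadjusted p under 0.05, DESeq2 called 134 and limma 0. In HFpEF+TYA-018 against non_failing it was 1 (Dio2), beside 7.39%, and the call was lost without any 1 of V2501, V2502, V2503, V2504, V2509, V2546 or V2555, and with limma. None was called in HFpEF+SGLT2i against non_failing, beside 6.45%.

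The mean transcript length that the quantification assigned to each gene was not used to choose the genes, and it was compared between groups. For Thra, Thrb and Slc16a10 it can move with the mix of transcripts. Dio2 has 1 annotated transcript, so its length cannot show such a shift. Each length was divided by the gene's mean over libraries and by the library's median. Of 24 tests (4 genes, 6 comparisons) none passed after adjustment. The smallest p was for Slc16a10, whose length in HFpEF+TYA-018 differed from the vehicle value by -2.22% (p = 0.00646, two-sided exact permutation test, adjusted p = 0.155), with 10 of 11 libraries below the vehicle mean. For Thra the difference between HFpEF+Veh and non_failing was -3.52% (exact permutation p = 0.0584, adjusted p = 0.433). The mean length of Thra was 2155 bases in non_failing and 2054 in HFpEF+Veh, 2053 in HFpEF+TYA-018 and 2182 bases in HFpEF+SGLT2i.

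Other genes of the pathway were listed by role, although with earlier results of these libraries known, and were tested among all genes. Their counts of calls stand beside shares over all genes of 3.15% in HFpEF+Veh, 7.39% in HFpEF+TYA-018 and 6.45% in HFpEF+SGLT2i against non_failing, and of 1.93% in HFpEF+TYA-018 and 0.85% in HFpEF+SGLT2i against HFpEF+Veh. Among iodothyronine transporters, 5 of 9 had enough reads. Slco2b1, an organic anion transporter that carries T4, rose in HFpEF+Veh (log2 fold change 0.39 ± 0.11, adjusted p = 0.0480, higher in 8 of 8) and in HFpEF+SGLT2i (0.50 ± 0.11, adjusted p = 0.00236, higher in 11 of 11) against non_failing, from 5.38 ± 0.765 TPM (n = 8) to 7.49 ± 1.26 (n = 8) and 7.64 ± 1.70 TPM (n = 11), by edgeR. The vehicle call held in 12 of 38 fits that each left out a library and was lost with no filter.

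**Figure D5:**
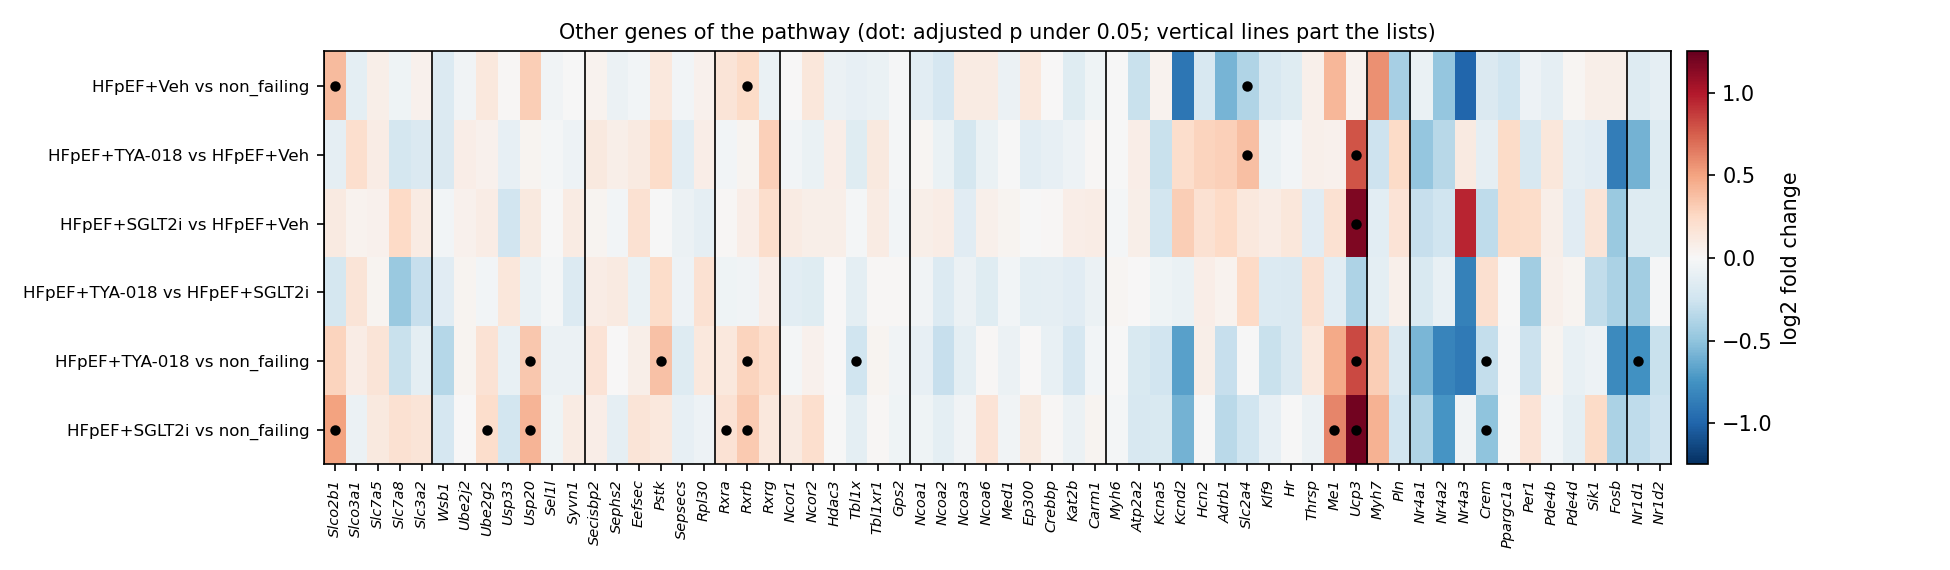
Log2 fold changes of 62 other tested genes of the pathway in the 6 comparisons as a colour scale, with a dot where the adjusted p was under 0.05; from left to right the lists are transporters, Dio2 turnover, selenoprotein synthesis, retinoid X receptors, corepressors, coactivators, T3-induced, T3-repressed, cyclic AMP-responsive and locus neighbours. Ucp3 carries 4 dots, Rxrb 3, and the coactivators none.

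Of the 3 retinoid X receptors, all tested, Rxrb rose in each HFpEF group against non_failing, by 0.24 ± 0.06 in HFpEF+Veh, 0.28 ± 0.06 in HFpEF+TYA-018 and 0.33 ± 0.06 in HFpEF+SGLT2i (log2, adjusted p = 0.0231, 0.00199 and 0.000358, edgeR). Its mean was 13.2 ± 1.84 TPM for non_failing and 17.4 ± 2.08 TPM for HFpEF+Veh, and every library of the 3 HFpEF groups lay above the non_failing mean on the log2 CPM scale. Rxra rose in HFpEF+SGLT2i against non_failing (0.18 ± 0.05, adjusted p = 0.0265). Rxrg was not called. In fits without 1 library the Rxrb call in HFpEF+Veh held in 35 of 38 and the Rxra call in 33. The Rxra call was lost in 3 of 5 other settings (library size alone, a length offset and limma), and the Rxrb call in HFpEF+TYA-018 with limma.

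Of 6 corepressor complex genes 1 was called, Tbl1x, a subunit that holds the complex together, which fell in HFpEF+TYA-018 against non_failing (-0.25 ± 0.07, adjusted p = 0.0173, edgeR, lower in 11 of 11), beside 7.39% of all genes, and in 37 of 38 fits without 1 library. The other 5, among them Ncor1 and Hdac3, were not called. None of 9 coactivators was called in any of the 6 comparisons. The most abundant of them, Carm1, averaged 11.3 ± 1.80 TPM (n = 38).

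Among 7 factors that act on the Dio2 protein, calls were made against non_failing. Usp20, a deubiquitinase that rescues the enzyme, rose in HFpEF+TYA-018 (0.33 ± 0.10, adjusted p = 0.0346) and HFpEF+SGLT2i (0.42 ± 0.10, adjusted p = 0.00737), and Ube2g2, a ubiquitin-conjugating enzyme, in HFpEF+SGLT2i (0.22 ± 0.07, adjusted p = 0.0452), by edgeR, which was 1 of 7 such genes beside 7.39% of all genes in HFpEF+TYA-018 and 2 of 7 beside 6.45% in HFpEF+SGLT2i. In HFpEF+Veh against non_failing Usp20 had a log2 fold change of 0.30 ± 0.11 that missed the threshold (adjusted p = 0.129, edgeR), and treated hearts differed from HFpEF+Veh by 0.03 ± 0.10 under TYA-018 and 0.12 ± 0.10 under SGLT2i, neither called. The Usp20 call in HFpEF+TYA-018 held in 28 of 38 fits without 1 library and the Ube2g2 call in 13. Each was lost in 3 of 5 other settings, both with library size alone and limma, Usp20 also with the length offset and Ube2g2 also with no filter. Of the 6 selenoprotein synthesis genes, Pstk, the kinase that prepares the selenocysteine tRNA, rose in HFpEF+TYA-018 against non_failing (0.36 ± 0.08, adjusted p = 0.00494, higher in 11 of 11).

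Genes that T3 is known to induce were called in small numbers, which are given beside the share of all genes called. Of 12, all tested, 0 were called higher and 1 lower in HFpEF+Veh against non_failing, where 3.15% of all genes were called, with a median log2 fold change of -0.17 beside 0.01 over all genes. In HFpEF+TYA-018 against HFpEF+Veh 2 were higher and 0 lower, beside 1.93% (median 0.08 beside -0.01), and in HFpEF+SGLT2i against HFpEF+Veh 1 and 0, beside 0.85%, a share that rests on V2523 (median 0.14 beside 0.01). Between the drugs none was called (median -0.02 beside -0.01). Against non_failing 1 was higher in HFpEF+TYA-018, beside 7.39% (median -0.09 beside 0.01), and 2 in HFpEF+SGLT2i, beside 6.45% (median -0.09 beside 0.01). Called or not, the log2 fold change was above 0 for 4 of 12 in HFpEF+Veh, 4 in HFpEF+TYA-018 and 2 in HFpEF+SGLT2i against non_failing. Against HFpEF+Veh it was above 0 for 8 in HFpEF+TYA-018 and 9 in HFpEF+SGLT2i, and between the drugs for 6.

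Ucp3, a mitochondrial carrier also induced by fatty acids, was the T3-induced gene called most often. It rose against HFpEF+Veh in HFpEF+TYA-018 (0.79 ± 0.21, adjusted p = 0.0370) and in HFpEF+SGLT2i (1.17 ± 0.21, adjusted p = 0.00129), by edgeR. Its mean was 11.4 ± 6.09 TPM for non_failing, 12.5 ± 2.34 TPM for HFpEF+Veh, 19.6 ± 5.36 TPM for HFpEF+TYA-018 and 26.3 ± 6.71 TPM for HFpEF+SGLT2i. It rose against non_failing as well, by 0.83 ± 0.21 and 1.21 ± 0.21 (adjusted p = 0.00998 and 0.00022). The call in HFpEF+TYA-018 against HFpEF+Veh held in 28 of 38 fits that each left out a library, and it was lost with the length offset and with limma, as was the HFpEF+SGLT2i call against HFpEF+Veh with limma.

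Slc2a4, the insulin-responsive glucose transporter, fell in HFpEF+Veh against non_failing (-0.38 ± 0.11, adjusted p = 0.0486, lower in 8 of 8) and rose in HFpEF+TYA-018 against HFpEF+Veh (0.38 ± 0.10, adjusted p = 0.0462, higher in 11 of 11), by edgeR. Those calls held in 14 and 15 of 38 fits that each left out a library, and in 1 and 2 of 5 other settings. Me1, which makes NADPH from malate, rose in HFpEF+SGLT2i against non_failing (0.61 ± 0.17, adjusted p = 0.0230, edgeR), in 35 of 38 such fits but not with limma. The classical heart targets Myh6 and Atp2a2 were not called: Myh6, a myosin heavy chain, had a log2 fold change of -0.0037 ± 0.15 in HFpEF+Veh against non_failing, and Atp2a2, the calcium pump, one of -0.275 ± 0.18. Others of the list had larger differences there that missed the threshold by edgeR. They were Kcnd2 (-0.90 ± 0.28, adjusted p = 0.0752, lower in 7 of 8) and Adrb1 (-0.58 ± 0.21, adjusted p = 0.130, lower in 8 of 8). Of the 12 genes, 4 had a log2 fold change above 0 there.

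Of the T3-repressed genes, Myh7 averaged 20.9 ± 4.71 TPM for non_failing and 32.2 ± 7.17 TPM for HFpEF+Veh. Its log2 fold change, 0.57 ± 0.21, was not called (adjusted p = 0.157, edgeR). Pln, the brake on the calcium pump, was not called either, at -0.42 ± 0.17 on the log2 scale (adjusted p = 0.202, edgeR). Slc8a1, the sodium-calcium exchanger that cardiomyocytes are known to express, is listed at 0 in all 38 libraries, and such a 0 can be a failed estimate, so its level is unknown here.

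Of 10 cyclic AMP-responsive genes, all tested, none was called in HFpEF+Veh against non_failing, where the median log2 fold change was -0.10 beside 0.01 over all genes. Crem, a CRE-binding repressor with a cyclic AMP-inducible form, fell in HFpEF+TYA-018 (-0.30 ± 0.09, adjusted p = 0.0432) and HFpEF+SGLT2i (-0.50 ± 0.09, adjusted p = 0.000591) against non_failing, by edgeR, the first of these in 27 of 38 fits without 1 library and 2 of 5 other settings (lost with no filter, the length offset and limma). The plasma hormone carriers Ttr and Alb, made by liver, were called lower in treated than in vehicle hearts, and without V2523 these calls were lost. Both were also called lower in HFpEF+TYA-018 and HFpEF+SGLT2i than in non_failing, in 38 of 38 fits without 1 library.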

How the data were processed

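The 4 genes and all gene lists were chosen with earlier results of these data known. The authors trimmed reads with fastp, quantified transcripts with Salmon 1.6.0 (version per the submitters' processing notes, which name the human build hg38, whereas the methods name GRCm38) and used tximport for gene sums. The deposited expected counts are reads estimated for each gene. The deposited TPM values were scaled by the authors to 1000000 transcripts per library. The deposited effective lengths, in bases, are another unit of the same run. Unmapped columns numbered 0. Groups came from sample titles. P-values measure the spread between mice, 1 library each.

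Expected counts were rounded, filtered with filterByExpr and scaled with TMM factors. All 4 groups were fitted in 1 model without covariates and tested by quasi-likelihood (edgeR 4.0.16 under R 4.3.3), two-sided, with Benjamini-Hochberg adjustment over 13765 genes and calls under 0.05. The pipeline was tested on simulated data. Length was compared by two-sided permutation, exact except with 11 against 11 libraries (100000 resamples). Alternatives were library size alone, no filter, a length offset, DESeq2 1.42.0, limma 3.58.1 on log2(TPM + 1), and leaving out each library. The Dio2 TPM mean without V2530 and the receptor ratio without V2523 were added after seeing the data. Named were the 4 genes, list genes called in at least 1 comparison or, in a list with none, the most abundant, and the 3 genes (log2 CPM at least 1, prior count 2) most correlated with each of the 4. Myh6, Atp2a2, Myh7, Kcnd2, Adrb1 and marker genes were named beyond this rule after their values were seen. Rxrg, Ncor1, Hdac3, Nr1d2, Slc8a1 and Dio3 were also named beyond it. A gene of the transporter list is not reported here. None of the 166 pairs of libraries from 1 group agreed within counting noise (chi-square per degree of freedom at least 16.6). Promoters are from RefSeq (GRCm38.p6, 3 of 4 genes matched), gene models from GENCODE M21 (GRCm38). Intervals cover counting error only.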

Additional observations from a re-analysis of the deposited data

Results flagged for a closer look

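One library stood far from the others of its group for 1 of the 4 genes. HFpEF+Veh V2530 had 1.16 TPM of Dio2, and the gap to the next vehicle library was 0.560 of the range of the group, above the critical value of 0.526 for 8 libraries. Dio2, Thra, Thrb and Slc16a10 were examined in this way for TPM and relative length in the 2 groups of 8 libraries, 16 sets of values in all, of which 1 stood out. Chance gives about 1 in 20. In the same library the 5 fibroblast markers summed to 565 TPM and Postn reached 44.1 TPM, both the highest of the vehicle group. Postn had been picked for following Dio2 over these libraries. The part of these transcripts in the Dio2 value was not tested.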

How the results depend on the processing

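Of 1032 alternative values for the log2 fold changes of the 4 genes, 1029 moved by less than the spread between libraries of a group. The exceptions were Dio2 with limma on log2(TPM + 1), which gave 0.33 for HFpEF+Veh, 0.18 for HFpEF+TYA-018 and 0.12 for HFpEF+SGLT2i against non_failing, since a pseudocount of 1 lies above every Dio2 mean. The spread used was an SD of 0.68 for Dio2, 0.20 for Thra, 0.24 for Thrb and 0.24 for Slc16a10 (log2 CPM). Several of the differences are smaller than that. Such a difference could vanish or change sign and still be among the 1029, so that count does not show that they hold. Scaling to library size alone moved the median of all genes to -0.14 in HFpEF+TYA-018 against HFpEF+Veh, from -0.01, and Thra stayed below it there, at -0.35. Genes called in HFpEF+TYA-018 against HFpEF+Veh, 266, became 1096 with library size alone, 618 with no filter and 402 with DESeq2, and 167 (V2530) to 393 (V2570) when a library was left out. In HFpEF+SGLT2i against HFpEF+Veh 117 became 457 with no filter, 0 with limma, and 2 (V2523) to 175 when a library was left out. Between the drugs 0 became 5 with a length offset, 134 with DESeq2, and up to 17 (V2570) when a library was left out. Limma gave 506 and 512 genes in HFpEF+TYA-018 and HFpEF+SGLT2i against non_failing, where 1017 and 888 were called. Of the 4 genes, 1 was called in HFpEF+TYA-018 against non_failing, beside 1017 of all genes. That count became 2 with library size alone (beside 904 of all genes) and with DESeq2 (beside 1272), and 0 with limma (beside 506). When a library was left out it was 0 to 2, beside 736 to 1154 of all genes. In HFpEF+TYA-018 against HFpEF+Veh it was also 0 to 2 then, beside 167 to 393. Nothing is read from these counts. Without division by the library median, the log2 length difference of Dio2 turned to 0.0389 in HFpEF+SGLT2i against HFpEF+Veh and to -0.0606 between the drugs and was 0.0461 in HFpEF+SGLT2i against non_failing, the last 2 past the threshold though Dio2 has 1 annotated transcript, and that of Slc16a10 turned to 0.0339 in HFpEF+SGLT2i against HFpEF+Veh. The causes of the other changes were not tested. No paired analysis was possible because mouse numbers differ between groups. Depth limits Dio2 most, with a median of 41.5 reads per library.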
